A study of Homo sapiens with 12 samples.

Results

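The E2F transcription factors and the RB-like pocket proteins were examined in C4.2B cells as 10 genes, E2F1 to E2F8, RBL1 and RBL2, taken by name from a table of 58735 genes. C4.2B is a prostate cancer line that grows without androgen and descends from LNCaP, and polyA RNA was sequenced from 12 libraries, 3 in each of 4 arms. The arms were vehicle (DMSO), the AKT inhibitor ipatasertib at 0.25 µM (AKTi), the EZH2 inhibitor tazemetostat at 1 µM (EZH2i) and both agents together (combination). Cells of the EZH2i and combination arms had been kept in tazemetostat for 6 days beforehand and those of the other arms in DMSO, and all arms then spent the last 24 hours in charcoal-stripped serum with their agents before RNA was isolated. The replicates were plates of 1 cell line, so the tests below measure the spread between plates, and in bulk RNA fewer cells in a state and less RNA per cell cannot be told apart.

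E2F factors bind promoters of genes for DNA replication and cell division, mostly as dimers with a DP protein. E2F1, E2F2 and E2F3 are the activators, which the retinoblastoma family restrains until G1 cyclin-dependent kinases release them. E2F4 and E2F5 repress in quiescent and early G1 cells together with the pocket proteins p107 (RBL1) and p130 (RBL2), E2F6 represses through Polycomb-type complexes without a pocket protein, and the atypical factors E2F7 and E2F8 repress without DP or pocket protein and are themselves E2F target genes.

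Several of these genes carry E2F sites in their own promoters, and sequences are shown for some that fell far and some that fell little. Promoter windows from RefSeq (GRCh38.p14), 250 bases before to 50 after the start site, were used for 8 of the 10 genes. Each window was searched on both strands for the words TTTGGCGC, TTTCCCGC, TTTCGCGC and TTTGCCGC, which were present in 3.31% of 35116 promoters. The 120 bases before the RefSeq start are printed 5′ to 3′ on the strand of the gene, with these words in capitals on whichever strand they were read. They lie at chr20:33686386-33686505 on the minus strand for E2F1, chr1:23531234-23531353 on the minus strand for E2F2, chr6:20401759-20401878 on the plus strand for E2F3, chr20:37095998-37096117 on the minus strand for RBL1, chr16:67192035-67192154 on the plus strand for E2F4 and chr12:77065570-77065689 on the minus strand for E2F7.
E2F1: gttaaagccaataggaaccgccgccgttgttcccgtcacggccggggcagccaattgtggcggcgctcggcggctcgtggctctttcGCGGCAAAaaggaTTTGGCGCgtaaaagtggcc
E2F2: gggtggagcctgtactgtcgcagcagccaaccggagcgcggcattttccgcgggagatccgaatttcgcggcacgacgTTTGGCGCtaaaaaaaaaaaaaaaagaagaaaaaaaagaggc
E2F3: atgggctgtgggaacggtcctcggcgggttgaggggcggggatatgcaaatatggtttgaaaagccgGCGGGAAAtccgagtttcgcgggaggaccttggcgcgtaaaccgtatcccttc
RBL1: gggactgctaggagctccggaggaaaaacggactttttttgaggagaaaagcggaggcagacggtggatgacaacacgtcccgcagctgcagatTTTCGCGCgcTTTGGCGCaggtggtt
E2F4: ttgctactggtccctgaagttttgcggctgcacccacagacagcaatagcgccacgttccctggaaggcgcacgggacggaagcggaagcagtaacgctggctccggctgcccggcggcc
E2F7: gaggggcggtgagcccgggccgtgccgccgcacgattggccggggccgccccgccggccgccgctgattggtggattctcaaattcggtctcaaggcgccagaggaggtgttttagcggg

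The E2F1 and RBL1 windows held 2 words each, and the E2F2 window and the first of the 2 E2F3 windows held 1 each. No word was found in the windows of E2F4, E2F6, E2F7 or RBL2, which says only that these letters are not in these bases. In the combination, E2F1 and RBL1 were 15.5-fold and 4.28-fold lower than in DMSO. E2F7 and E2F4, without a word, were 21.8-fold and 2.23-fold lower. Whether the words bear on the size of a fall was not tested. RefSeq entries for E2F5 and E2F8 were not used here.

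Library totals ran from 14133755 to 22276417 counts, and the mitochondrial share of counts was 2.37% to 3.36% in DMSO, 3.93% to 4.29% in AKTi, 4.35% to 5.31% with EZH2i and 5.14% to 5.64% in the combination, whose part in the results was not tested. Prostate luminal genes were expressed throughout, with KLK3 (PSA) at 1338 to 3980 CPM (counts relative to library size, with libraries scaled by the trimmed mean of M values, TMM). All 11 luminal genes passed the filter, 9 of them called higher and 2 lower in the combination than in DMSO (38.0% and 35.2% of all genes tested), and their summed level was 4297 to 4429 CPM in DMSO and 9175 to 9399 CPM in the combination. Of 12 markers of immune, stromal, endothelial, basal and neuroendocrine cells, 4 passed the filter, and COL1A1 and VWF were called higher in the combination. CD3E and KRT5 had 0 counts in all 12 libraries, which allows up to 3 counts a library, and the summed level of all 12 was 8.44 to 12.9 CPM in DMSO, 10.3 to 11.3 in AKTi, 24.5 to 27.2 with EZH2i and 18.9 to 22.5 in the combination. The part of these markers in the results below was not tested.

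All 10 genes passed the filter on low counts that left 16646 genes for testing. In DMSO, E2F1 was the most abundant of them per length, at 35.1 ± 1.30 CPM per kb (SD, n = 3). RBL2 at 15.4 ± 0.0355 and E2F4 at 14.8 ± 0.833 CPM per kb followed and overlapped each other, and E2F3 came next at 12.3 ± 0.322. RBL1 (7.36 ± 0.526) and E2F8 (7.30 ± 0.178 CPM per kb) also overlapped, whereas E2F6, E2F7, E2F2 and E2F5 lay below them at 5.41, 4.72, 3.85 and 2.48 CPM per kb, each separate from the next.

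In the combination, RBL2 led at 18.6 ± 0.912 CPM per kb, and E2F1 ranked 5 of 10 at 2.27 ± 0.0164 CPM per kb. E2F4 (6.60 ± 0.220) and E2F3 (6.33 ± 0.326) followed and overlapped, ahead of E2F6 at 2.56 ± 0.0604 CPM per kb. E2F7, E2F8 and E2F2, at 0.218, 0.204 and 0.111 CPM per kb, were the lowest and overlapped each other, but not E2F5 above them. In the single-agent arms E2F1 and RBL2 shared the top of the order and overlapped, with means of 22.8 and 21.9 CPM per kb in AKTi and 13.5 and 13.8 in EZH2i.

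**Figure D1:**
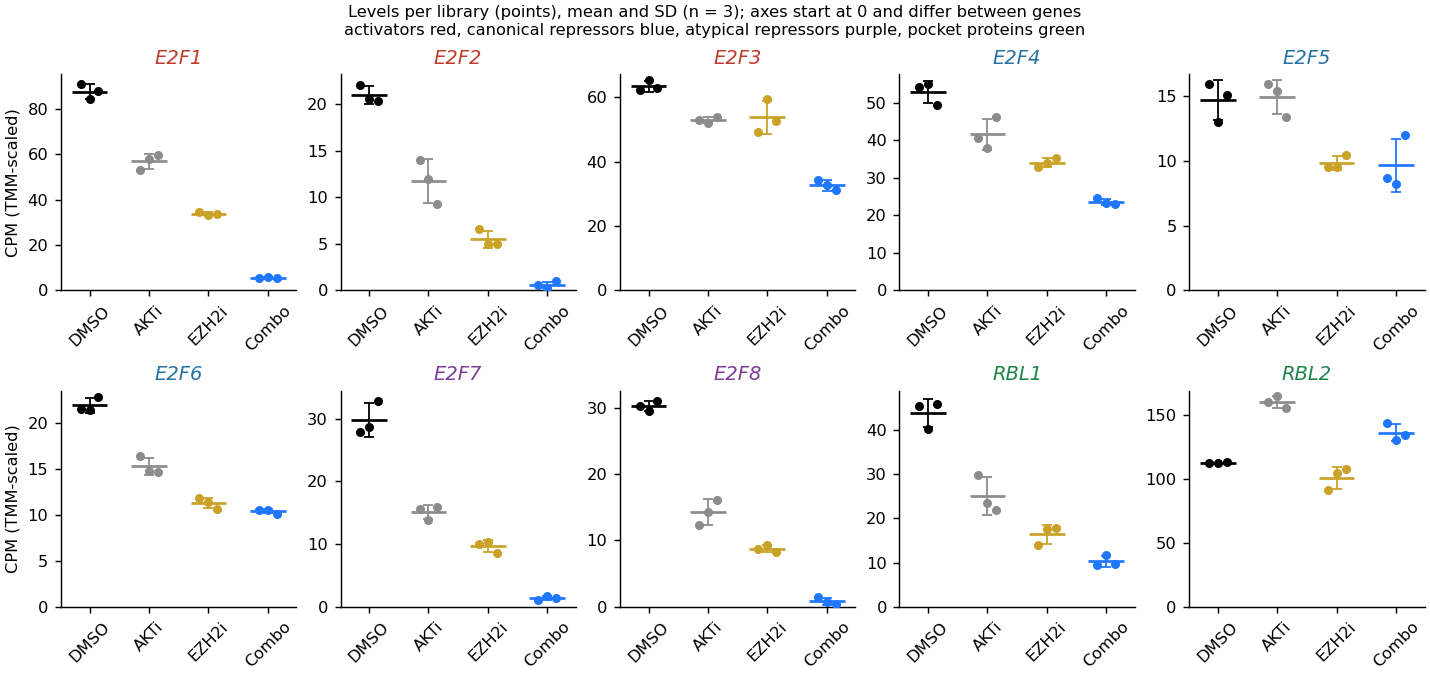
Level of each gene in CPM (TMM-scaled, vertical axis from 0, scale differing between genes) in the DMSO, AKTi, EZH2i and combination arms, with points for libraries and mean and SD for n = 3. E2F1 fell from 84.5 to 90.9 CPM in DMSO to 5.63 to 5.71 CPM in the combination, while RBL2 was at 130.4 to 143.5 CPM in the combination and 112.3 to 112.8 CPM in DMSO.

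Most of the genes were lower with either agent, and the combination lowered E2F1, E2F2, E2F7 and E2F8 15.5-fold to 34.7-fold. Against DMSO, edgeR's quasi-likelihood test called 8 of 10 genes lower in AKTi, where 21.9% of all genes tested were lower, and 1 higher, where 20.6% of all were higher. In EZH2i it called all 10 lower, against a background of 31.5% of genes lower and 32.6% higher. In the combination it called 9 lower and 1 higher, against 35.2% of all genes lower and 38.0% higher. The median log2 fold change of the 10 genes was -0.57, -1.17 and -1.63 in AKTi, EZH2i and the combination, and that of all genes was 0.0070, 0.030 and 0.062. These 3 comparisons share the DMSO libraries.

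**Figure D2:**
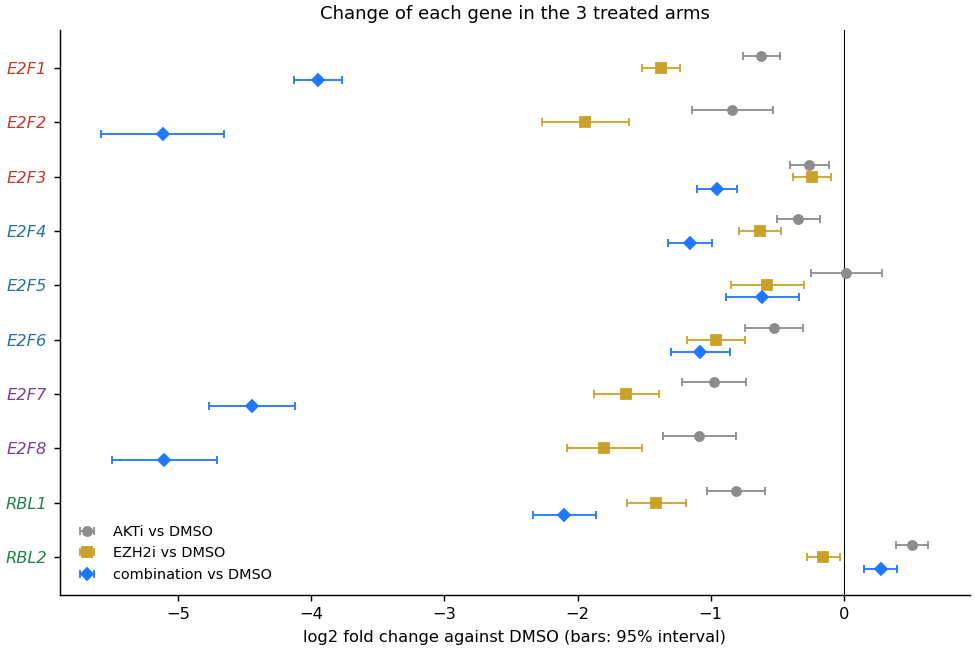
Log2 fold change against DMSO (horizontal axis) of each gene in the AKTi, EZH2i and combination arms, with bars for the 95% interval from edgeR. E2F1, E2F2, E2F7 and E2F8 lay between -5.12 and -3.95 in the combination, and RBL2 was above 0 in AKTi and in the combination.

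Among the activators, E2F1, which drives entry into S phase, was measured at 90.9, 84.5 and 87.9 CPM in the DMSO libraries. It was at 53.3, 58.1 and 59.7 CPM in AKTi, at 34.6, 33.1 and 33.9 CPM with EZH2i and at 5.63, 5.71 and 5.68 CPM in the combination. The 4 arms did not overlap, and the combination libraries lay close together. E2F1 changed by -0.62 on the log2 scale in AKTi (SE 0.068, edgeR adjusted p = 1.8e-09). The changes were -1.37 in EZH2i (SE 0.070, edgeR adjusted p = 5.4e-19) and -3.95 in the combination (SE 0.088, adjusted p = 2.0e-30). The gene lies at chr20:33675683-33686404 (hg38), and the 2 E2F words of its promoter start at positions -33 and -20 from the RefSeq start.

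E2F2, the second activator and the least abundant of the class, was at 22.1, 20.6 and 20.3 CPM in DMSO and at 14.03, 11.9 and 9.32 CPM in AKTi. EZH2i brought it to 6.56, 4.97 and 4.96 CPM and the combination to 0.558, 0.288 and 0.967 CPM, where the libraries held 11, 5 and 16 counts. No arm overlapped another. The log2 fold change was -0.84 in AKTi (SE 0.15, edgeR adjusted p = 2.0e-05), -1.94 in EZH2i (SE 0.16, adjusted p = 4.0e-13) and -5.12 in the combination (SE 0.23, adjusted p = 2.4e-21), next to that of E2F8 among the 10 genes.

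E2F3, the remaining activator, moved far less. It was at 62.3, 65.4 and 62.7 CPM in DMSO, at 52.9, 52.0 and 53.9 CPM in AKTi, at 49.4, 59.3 and 52.5 CPM with EZH2i and at 34.4, 32.6 and 31.1 CPM in the combination. The AKTi and EZH2i libraries overlapped, and all of them lay between those of DMSO and the combination. E2F3 fell by 0.26 on the log2 scale in AKTi (edgeR adjusted p = 0.0032), by 0.24 in EZH2i (adjusted p = 0.0037) and by 0.95 in the combination (SE 0.074, adjusted p = 3.1e-14). The EZH2i call was lost when libraries were scaled by total counts alone (-0.09, adjusted p = 0.25) and also when they were scaled by the upper quartile. E2F3 has 2 RefSeq start sites, for a longer and a shorter form, which counts per gene do not separate.

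The canonical repressors were lowered to a smaller degree than E2F1 and E2F2. E2F4, the most abundant repressor E2F, was at 54.1, 55.0 and 49.4 CPM in DMSO, 40.6, 38.0 and 46.1 in AKTi, 32.8, 34.0 and 35.3 with EZH2i and 24.5, 23.3 and 23.1 CPM in the combination. Its arms did not overlap. E2F4 fell by 0.34 on the log2 scale in AKTi (edgeR adjusted p = 5.2e-04), by 0.63 in EZH2i (adjusted p = 9.9e-09) and by 1.16 in the combination (SE 0.082, adjusted p = 2.5e-15).

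E2F5, which like E2F4 represses together with p107 and p130, did not differ detectably between AKTi and DMSO. The libraries were at 15.95, 13.0 and 15.1 CPM in DMSO, 15.9, 15.4 and 13.4 in AKTi, 9.51, 9.53 and 10.5 with EZH2i and 8.67, 8.24 and 12.02 CPM in the combination. The 2 arms with tazemetostat overlapped each other and lay below the 2 arms without it. The AKTi difference was 0.02 on the log2 scale (95% interval -0.25 to 0.29, edgeR adjusted p = 0.93), whereas E2F5 fell by 0.58 in EZH2i (adjusted p = 3.2e-04) and by 0.61 in the combination (SE 0.14, adjusted p = 1.2e-04). The gene overlaps C8orf59 on the opposite strand over 3083 bases, and since the strand setting of the counting is not given in the sources used here, reads there could not be assigned with certainty.

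E2F6, the Polycomb-associated repressor, was at 21.6, 21.5 and 22.9 CPM in DMSO and at 16.4, 14.9 and 14.7 CPM in AKTi. It was at 11.9, 11.5 and 10.7 CPM with EZH2i and at 10.6, 10.6 and 10.1 CPM in the combination. DMSO and AKTi stood apart from the other arms, and EZH2i lay just above the combination. E2F6 fell by 0.52 on the log2 scale in AKTi (edgeR adjusted p = 1.3e-04), by 0.96 in EZH2i (adjusted p = 8.3e-10) and by 1.08 in the combination (SE 0.11, adjusted p = 4.1e-11).

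The atypical repressors followed E2F1 and E2F2 rather than the canonical repressors. E2F7 was at 27.8, 28.7 and 32.8 CPM in DMSO, 15.6, 13.9 and 15.99 in AKTi, 9.98, 10.4 and 8.59 with EZH2i and 1.06, 1.73 and 1.33 CPM in the combination, where it had 21 to 30 counts. The arms did not overlap. The log2 fold change of E2F7 was -0.98 in AKTi (edgeR adjusted p = 1.3e-08), -1.63 in EZH2i (adjusted p = 1.8e-14) and -4.45 in the combination (SE 0.16, adjusted p = 4.6e-24), a 21.8-fold lower level.

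E2F8, its paralog, was at 30.2, 29.5 and 31.0 CPM in DMSO and 12.3, 14.3 and 16.1 CPM in AKTi. It was at 8.71, 9.23 and 8.18 CPM with EZH2i and at 1.42, 0.750 and 0.362 CPM in the combination, where the libraries held 28, 13 and 6 counts. The arms again did not overlap, though the combination libraries were uneven. E2F8 fell by 1.08 on the log2 scale in AKTi (edgeR adjusted p = 2.0e-08), by 1.80 in EZH2i (adjusted p = 5.0e-14) and by 5.10 in the combination (SE 0.19, adjusted p = 2.4e-23), or by 5.74 without combination replicate A. Without that library the differences from AKTi and EZH2i and the interaction, given below, were -4.66, -3.94 and -2.86.

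The pocket proteins went apart. RBL1 (p107), itself an E2F target, was at 45.3, 40.2 and 45.9 CPM in DMSO, 29.9, 23.4 and 21.8 in AKTi, 13.9, 17.5 and 17.8 with EZH2i and 9.43, 11.6 and 9.67 CPM in the combination. No arm overlapped another. RBL1 fell by 0.81 on the log2 scale in AKTi (edgeR adjusted p = 8.6e-08), by 1.41 in EZH2i (adjusted p = 6.8e-14) and by 2.10 in the combination (SE 0.12, adjusted p = 1.6e-18). The 2 E2F words of its promoter start at positions -26 and -16.

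RBL2 (p130), the pocket protein of quiescent cells, was the gene that rose. It was at 112.3, 112.4 and 112.8 CPM in DMSO, 160.2, 165.1 and 155.6 in AKTi, 91.1, 104.3 and 107.4 with EZH2i and 143.5, 130.4 and 134.4 CPM in the combination. The libraries of the 2 arms with ipatasertib all lay above those of the 2 arms without it, and those of EZH2i lay below DMSO. RBL2 rose by 0.51 on the log2 scale in AKTi (SE 0.060, edgeR adjusted p = 8.5e-09) and by 0.28 in the combination (SE 0.060, adjusted p = 1.1e-04), and was 0.15 lower in EZH2i (adjusted p = 0.026). The EZH2i call was lost under 6 alternatives, including scaling by total counts alone (-0.0090, adjusted p = 0.91) and leaving out EZH2i replicate A (-0.11, adjusted p = 0.10). RBL2 overlaps AKTIP, which had a mean of 1320 counts a library, on the opposite strand over 610 bases. As for E2F5, reads there could not be assigned with certainty.

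Set against each other as class sums, activators fell below canonical repressors in the combination, with E2F1 the largest part of the activator sum in DMSO. This did not hold gene by gene. The activator E2F3 changed less (log2 fold change -0.95) than the repressors E2F4 (-1.16) and E2F6 (-1.08), and more than E2F5 (-0.61). The summed level of E2F1, E2F2 and E2F3 was 51.2 ± 1.15 CPM per kb in DMSO, 35.2 ± 0.974 in AKTi, 24.9 ± 0.604 with EZH2i and 8.71 ± 0.282 in the combination (SD, n = 3). For E2F4, E2F5 and E2F6 the sums were 22.6 ± 0.579, 17.9 ± 0.962, 13.9 ± 0.286 and 10.8 ± 0.263 CPM per kb in the same order. The ratio of the first sum to the second was therefore 2.26 ± 0.0616 in DMSO, 1.97 ± 0.117 in AKTi, 1.79 ± 0.0572 with EZH2i and 0.807 ± 0.0312 in the combination. The 3 combination libraries were at 0.826, 0.825 and 0.771, below the lowest value of any other library, 1.73. These sums are descriptions and carry no test.

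The atypical pair, E2F7 and E2F8, summed to 12.02 ± 0.581 CPM per kb in DMSO, 5.84 ± 0.519 in AKTi, 3.64 ± 0.275 with EZH2i and 0.422 ± 0.111 in the combination. Repressor E2Fs thus did not move as one group, since the ratio of the atypical to the canonical sum went from 0.532 ± 0.0396 in DMSO to 0.0392 ± 0.0105 in the combination. Within the activators, E2F1 made up 68.5% of the summed level in DMSO and 26.0% in the combination, and E2F3 24.0% and 72.7%. For the pocket proteins, the ratio of RBL2 to RBL1 per length was 2.10 ± 0.154 in DMSO, 5.30 ± 0.812 in AKTi, 5.02 ± 0.259 with EZH2i and 10.9 ± 1.67 in the combination.

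**Figure D3:**
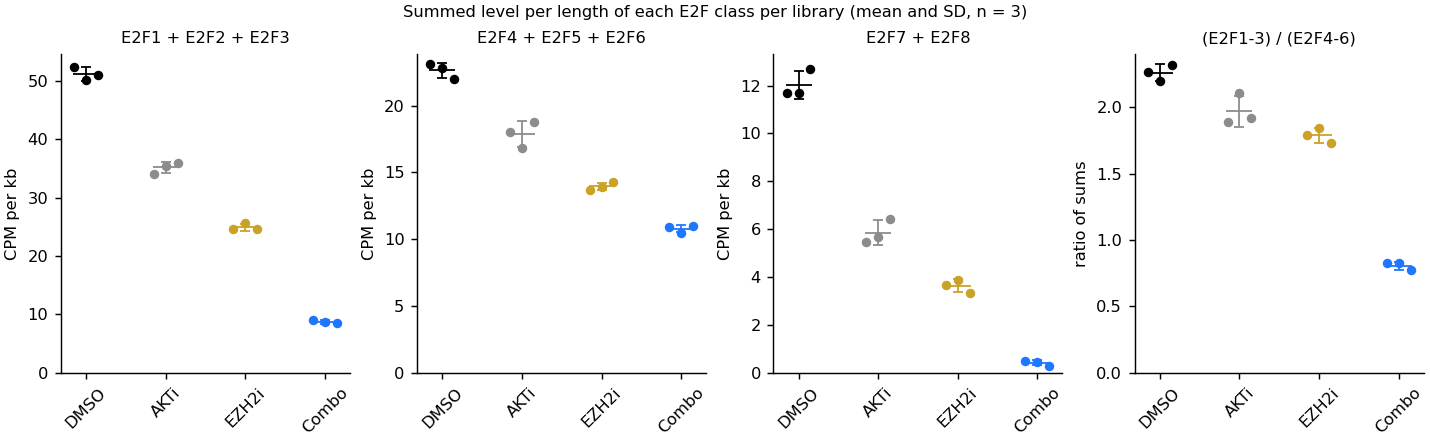
Summed level per length (CPM per kb) of each E2F class and the ratio of the activator to the canonical repressor sum in the 4 arms, with points for libraries and mean and SD for n = 3. The activator sum went from 51.2 to 8.71 CPM per kb between DMSO and the combination, and the canonical repressor sum from 22.6 to 10.8 CPM per kb.

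Adding the EZH2 inhibitor to AKTi lowered all 10 genes by edgeR's test, where 32.1% of all genes tested were lower and 32.1% higher. The log2 fold changes between the combination and AKTi were -3.33 for E2F1, -4.28 for E2F2, -3.47 for E2F7 and -4.02 for E2F8, and -0.55 to -1.29 for E2F3, E2F4, E2F5, E2F6 and RBL1. RBL2 was 0.24 lower (edgeR adjusted p = 7.7e-04), a call lost with scaling by total counts alone (adjusted p = 0.14) or by the upper quartile (adjusted p = 0.096).

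Adding the AKT inhibitor to EZH2i lowered 7 of the 10 genes, where 25.7% of all genes were lower, and raised 1, where 21.1% were higher. The log2 differences were -2.58 for E2F1, -3.17 for E2F2, -2.81 for E2F7 and -3.30 for E2F8, and RBL2 rose by 0.43 (edgeR adjusted p = 2.0e-07). E2F5 (-0.04, 95% interval -0.32 to 0.25) and E2F6 (-0.12, 95% interval -0.35 to 0.12) were not called.

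Between the single agents, 9 of the 10 genes were lower in EZH2i than in AKTi, where 25.1% of all genes tested were lower and 25.4% higher. The differences on the log2 scale were -0.75 for E2F1, -1.11 for E2F2, -0.66 for E2F7, -0.71 for E2F8 and -0.60 for RBL1. RBL2 differed by -0.66 (SE 0.060, edgeR adjusted p = 1.1e-11), whereas E2F3 was not called (0.02, 95% interval -0.12 to 0.17).

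Whether the combination exceeded the sum of the single agents was tested with the interaction term, the AKTi effect with EZH2i minus the AKTi effect without it on the log2 scale. It was called below 0 for 5 of the 10 genes, where it was called below 0 for 17.5% of all genes tested, and called above 0 for 1, where it was for 10.7%. The log2 fold change of E2F1 was -3.95 against a sum of single-agent changes of -1.996, an interaction of -1.96 (SE 0.12, edgeR adjusted p = 8.5e-16). For E2F2, E2F7 and E2F8 the sums were -2.78, -2.61 and -2.88, and the interactions were -2.34 (SE 0.32, adjusted p = 3.4e-07), -1.83 (SE 0.22, adjusted p = 3.2e-08) and -2.22 (SE 0.27, adjusted p = 4.2e-08).

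E2F3 had a smaller interaction of -0.45 (SE 0.10, edgeR adjusted p = 8.3e-04). For E2F4 (-0.18, 95% interval -0.42 to 0.05), E2F5 (-0.06, -0.45 to 0.33), RBL1 (0.12, -0.21 to 0.45) and RBL2 (-0.08, -0.25 to 0.09) the interaction was not called. RBL1 thus reached -2.10 in the combination where the single agents summed to -2.22. E2F6 fell less than the sum of -1.48, with an interaction of 0.41 (adjusted p = 0.049), a call lost under 14 of 18 alternatives with adjusted p between 0.030 and 0.17.

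**Figure D4:**
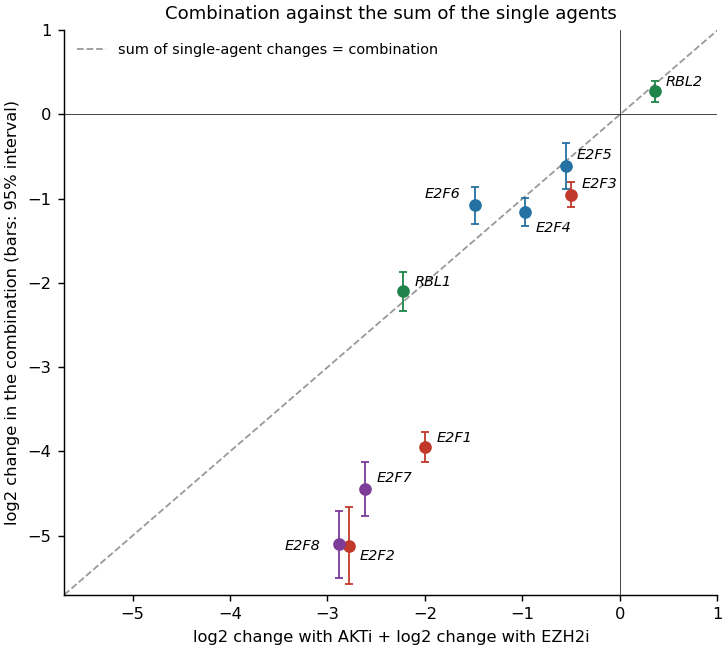
Log2 change in the combination (vertical axis, bars for the 95% interval) against the sum of the log2 changes with AKTi and EZH2i alone (horizontal axis) for the 10 genes, with a line where both are equal. E2F1, E2F2, E2F7 and E2F8 lay below the line, with interactions of -1.83 to -2.34, and RBL1, RBL2, E2F4 and E2F5 lay within 0.18 of it.

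The DP proteins, with which the classical E2Fs bind DNA, split. TFDP1 fell by 0.35 on the log2 scale in AKTi, 1.19 with EZH2i and 1.64 in the combination (edgeR adjusted p = 2.2e-23), and TFDP2 rose by 0.40, 0.61 and 0.76 (adjusted p = 2.7e-13 in the combination). TFDP3 had 0 counts in all 12 libraries and was not tested. Of all genes tested, 35.2% were lower and 38.0% higher in the combination, for comparison with the counts of the following lists. Of 7 genes of the MuvB complex and its partners, which join p130 and E2F4 in quiescence and B-MYB and FOXM1 in dividing cells, 6 were lower in the combination. The log2 fold changes were -4.23 for MYBL2 (B-MYB), -2.48 for FOXM1, -2.08 for LIN9, -1.98 for LIN52, -0.91 for LIN54 and -0.62 for RBBP4. LIN37 was not called (-0.51, SE 0.46, edgeR adjusted p = 0.32), but it held at most 26 counts in any library.

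Of 9 genes of the E2F6 complexes, 5 were lower and 4 higher in the combination, where 35.2% of all genes were lower and 38.0% higher. PCGF6 was at -1.11, CBX3 at -0.95, MGA at 0.65 and RING1 at 0.45 on the log2 scale. Of 8 G1 cyclins and kinases, 7 were tested and 6 were lower in the combination (35.2% of all genes), with CCNE2 (cyclin E2) at -2.81, CDK2 at -2.60 and CDK6, which was not called, at 0.19 (edgeR adjusted p = 0.25).

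Genes known to respond to E2F at G1/S were lower as well. All 34 were lower in the combination, where 35.2% of all genes were, with a median log2 fold change of -3.03 and a range from MCM10 at -5.52, a replication initiation factor, to RRM1 at -1.56, a ribonucleotide reductase subunit. All 28 genes of the G2/M list were also lower, with a median of -2.88 and a range from CDK1 at -4.35 to PRC1 at -1.79. PRC1 held at most 40 counts in any library (SE of its change 0.39). It was the gene of that list not called in AKTi or in EZH2i. In AKTi, 33 of 34 G1/S genes (median -0.84) and 27 of 28 G2/M genes (median -1.36) were lower, against 21.9% of all genes. In EZH2i, 34 of 34 (median -1.48) and 27 of 28 (median -0.90) were lower, against 31.5% of all genes.

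The lists parted between the single agents. In EZH2i against AKTi, 28 of 34 G1/S genes were lower and 1 higher (median -0.58), and 22 of 28 G2/M genes were higher and 0 lower (median 0.39), where 25.1% of all genes were lower and 25.4% higher. Of the 10 E2F and pocket protein genes, 9 were also lower in that comparison, canonical repressors and RBL2 among them, and E2F3 was not called. The E2F words were present in the promoters of 17 of 29 G1/S genes with an entry and of 3 of 23 G2/M genes, against 3.99% of 27305 genes. The G1/S list was chosen as genes known to respond to E2F, so this share describes the list. Whether the words bear on the parting of the lists was not tested.

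**Figure D5:**
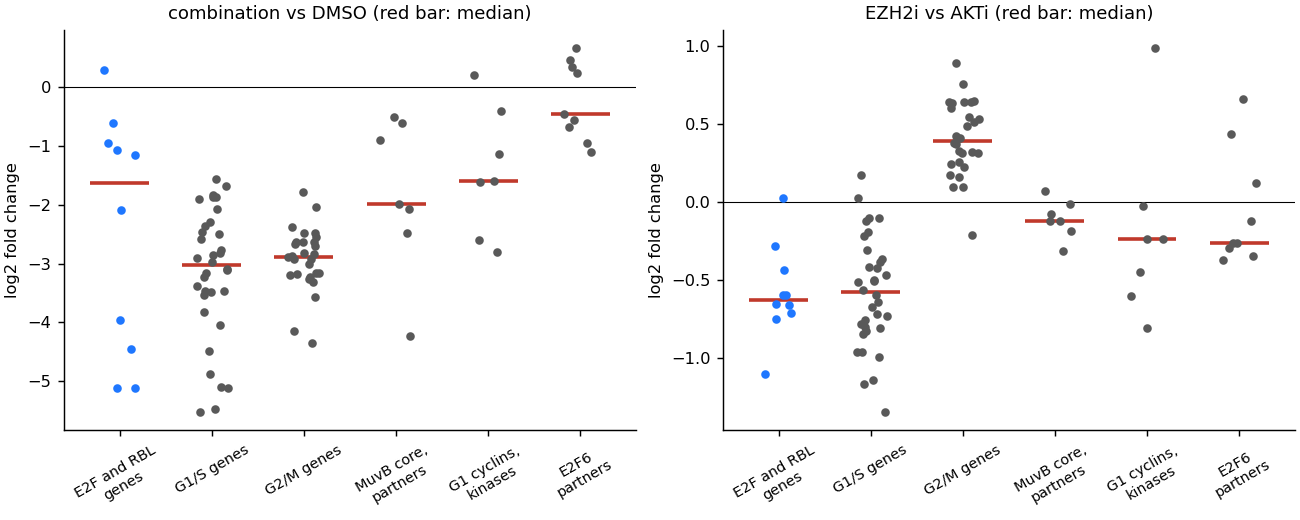
Log2 fold changes of single genes (points) and medians (red bars) for the E2F and pocket protein genes as a single group and for lists of related genes, by comparison. In the combination against DMSO the G1/S and G2/M medians were -3.03 and -2.88, and in EZH2i against AKTi they were -0.58 and 0.39.

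The genes whose log2 CPM tracked each E2F most closely over the 12 libraries, among 11366 protein-coding genes, are given as a description, since the points share the 4 arms. They were ASF1B (r = 0.998) and LMNB1 (0.998) for E2F1, CLSPN (0.993) and MVK (0.992) for E2F2, and SEC61A1 (0.985) and KIF18B (0.984) for E2F3. ALYREF (0.990) and SEC13 (0.989) were nearest to E2F4, METAP1D (0.954) and OAT (0.939) to E2F5, and NUDCD1 (0.994) and CUL1 (0.990) to E2F6. RAD54L (0.996) was among those nearest to E2F7, and PDE12 (0.991) and FHOD1 (0.991) were nearest to E2F8. For the pocket proteins they were PTCD3 (0.994) and GTF3C2 (0.993) for RBL1, and ROBO3 (0.961) and SRD5A1 (0.960) for RBL2.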

How the data were processed

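RNA-seq libraries from polyA RNA were compared in 4 arms of 3. Per the labels and methods, the authors aligned reads to hg38 with STAR and counted them with HTSeq. Versions, annotation and strand setting are not given in the sources used here. The deposited counts are whole numbers per gene. A second deposited table holds signal values, normalized by the authors with DESeq2. For the 56994 gene names compared, they differed from count divided by 1 size factor per library by a relative deviation of at most 5.0e-10, and they were used only for that check. The other deposited column is gene length, used for CPM per kb. Sequencing at an Illumina NextSeq system or Novogene was named without assigning libraries, so that batch and arm cannot be told apart.

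Counts were analysed in R 4.3.3 with edgeR 4.0.16 (TMM, quasi-likelihood test, filterByExpr with at least 10 counts and a total of 15, 1 mean per arm over 12 libraries, Benjamini-Hochberg over 16646 genes, threshold 0.05). Precision was limited by totals of 14133755 to 22276417 counts, and a count of 0 allows up to 3 counts, for counting error only. Other fits used DESeq2 1.42.0, another scaling (library size, upper quartile), other filters, the compared libraries alone, 1 library fewer, or a replicate block. Scripts were tested on simulated data.

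The members and lists were chosen with earlier results of these data known. Named were all members, list genes with the largest and smallest called change in the combination (any gene of lists of 9 or fewer), and the 2 protein-coding genes most correlated with each member over log2 CPM (prior count 2, mean at least 1). From that rule, 1 gene is not reported here. PCGF6, CBX3, MGA, RING1 and the single marker genes fall under the lists.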

Additional observations from a re-analysis of the deposited data

Results flagged for a closer look

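For 6 of the 10 genes, the effect of AKTi on the log2 scale differed between cells with and without EZH2i by edgeR's interaction term, with Benjamini-Hochberg adjustment over all genes tested, of which 17.5% were called below 0 and 10.7% above. The difference was -1.96 for E2F1, -2.34 for E2F2, -1.83 for E2F7 and -2.22 for E2F8, and the combination libraries lay below those of every other arm for each of these genes. It was -0.45 for E2F3, again with the 3 combination libraries lowest. For E2F6 the difference was 0.41, at an adjusted p of 0.049, and the call was lost under 14 of 18 alternatives. The libraries of EZH2i and the combination were close to each other.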

How the results depend on the processing

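Of 1306 values recomputed for single genes, 1264 kept their direction and side of the threshold, 24 kept their direction but lost their call, 18 changed sign and 0 gained a call. The 18 belong to differences near 0 that were called neither before nor after. With a library left out, E2F5 ranged from -0.084 to 0.078 in AKTi against DMSO, from -0.22 to 0.057 in the combination against EZH2i and from -0.24 to 0.054 in the interaction, E2F3 from -0.054 to 0.056 in EZH2i against AKTi, and RBL1 from -0.0052 to 0.24 in the interaction. Scaling by total or upper quartile put E2F5 at 0.016 and 0.029 in the combination against EZH2i. The lost calls were E2F3 in EZH2i against DMSO, RBL2 in EZH2i against DMSO and in the combination against AKTi, and the E2F6 interaction, with the values given above. The cause was not tested. The median of all genes in the combination against DMSO was 0.062 on the log2 scale, and 0.26 or 0.25 when libraries were scaled by total or upper quartile in place of TMM. Higher and lower calls with TMM and with library size only were 3429 and 3644 against 4112 and 3023 in AKTi against DMSO, 6320 and 5866 against 7574 and 4749 in the combination against DMSO, 3506 and 4275 against 4069 and 3687 in the combination against EZH2i, 5421 and 5249 against 6630 and 4193 in EZH2i against DMSO, 5344 and 5343 against 6544 and 4330 in the combination against AKTi, and 4226 and 4170 against 5104 and 3293 in EZH2i against AKTi. E2F2 and E2F8 gave no value under the filter of 10 counts in every library. Their combination libraries held 5 to 28 counts, which limits the precision of those folds. The shared replicate letters gave no clear sign of pairing the libraries. Above 0.1 correlated 1 of 18 same-letter pairs and 2 of 36 pairs of different letters. Of the 12 libraries, 5 correlated best with their own letter. With a replicate block, 12146 genes were called in the combination against DMSO (12186 without), and 10 of the 10 genes studied. The interaction was called for 5 of the 10 with the replicate block and 6 without.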

Other observations

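Over the 12 libraries, the log2 CPM of E2F1 correlated with that of E2F7 at r = 0.993, of E2F2 at 0.983 and of E2F8 at 0.982, and with that of RBL2 at -0.16. RBL2 correlated with the other 9 genes at -0.31 to 0.34. The libraries share the 4 arms, so these values describe the arms and carry no test.

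The CHR word TTTGAA, an element of G2/M promoters, was present on either strand in the promoters of 18.2% of 27305 genes with a RefSeq entry, in those of 17 of 23 G2/M genes and in those of 2 of 29 G1/S genes. Among the E2F factors and pocket proteins it was found in the first window of E2F3, at position -65, and in the first window of RBL2, at position 24. Whether the word bears on any change was not tested.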
